A study of Caenorhabditis elegans with 6 samples.

Results

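The vitellogenin genes *vit-1* to *vit-6* encode the yolk proteins of *C. elegans*, and their rows in the FPKM table were found by gene name, 6 of the 28641 genes listed. They were chosen with the difference between the genotypes in these same libraries already known, so their values are given here as a description and without a test. Whole worms at the L4 stage were sequenced, 3 *alh-4(-)* libraries and 3 wild type (WT, Bristol N2) libraries. The *alh-4(-)* worms carry *hj221*, a deletion in *alh-4* made by genome editing in the N2 background, and both genotypes were synchronized, fed *E. coli* OP50 and grown at 20 °C without treatment. Each library is a pool of many whole animals of 1 genotype, the mutant is represented by 1 allele, and the hours reached within the L4 stage are not given in the sources used here.

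Yolk is made in the intestine of the hermaphrodite, secreted into the body cavity and taken up by oocytes through the receptor RME-2. The *vit* genes are silent in early larvae and in males, and their transcription begins at the end of larval life and reaches very high levels in adults. The products of *vit-1* and *vit-2* resemble each other, those of *vit-3*, *vit-4* and *vit-5* form another closely related group, and the product of *vit-6* is cleaved into smaller yolk proteins. Each precursor is a large lipoprotein related to the apolipoprotein B of mammals, so the proteins carry lipid from the intestine to the germline.

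In the annotation of WBcel235, a later build than the ce10 assembly used by the authors, 5 of the 6 genes lie on chromosome X and *vit-6* (WBGene00006930) lies on chromosome IV. The genes *vit-3* (WBGene00006927) and *vit-4* (WBGene00006928) are neighbours on the minus strand of chromosome X, with 0 protein-coding genes between them. Both have 6 exons and encode 1603 residues, as does *vit-5* (WBGene00006929) elsewhere on the plus strand of the same chromosome. The genes *vit-1* (WBGene00006925) and *vit-2* (WBGene00006926) have 5 exons each and encode 1616 and 1613 residues. The 2 annotated transcripts of *vit-6* also have 5 exons each, and they encode 1650 and 1651 residues. Because the coding sequences within each group are alike, reads could have been assigned to the wrong relative, and values of single genes are therefore also given as sums over relatives.

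Levels are in FPKM, a count of fragments that the authors had already divided by exon length and by the total of mapped fragments. Over the genes tested, FPKM summed to between 3323500 and 3349060 in the *alh-4(-)* libraries and between 3307900 and 3361530 in the WT libraries, which is not a number of reads, and the depth of each library is unknown. The deletion was visible in *alh-4* itself, with 33.7, 24.6 and 35.2 FPKM in *alh-4(-)* worms against 352, 291 and 336 FPKM in WT worms. Replicate 1 of both genotypes listed fewer genes above 0 (17623 in *alh-4(-)* and 19102 in WT) than the other libraries (21058 to 22670). Results on the *vit* genes are therefore also given without these libraries.

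All 6 yolk protein genes were lower in *alh-4(-)* worms than in WT worms, and in each of them every *alh-4(-)* library lay below every WT library. Of all 16225 genes with a mean of at least 1 FPKM, 3.25% showed this arrangement, and nothing is read from the count of 6 because the members were chosen from this contrast. Together the 6 genes summed to 822, 680 and 478 FPKM in *alh-4(-)* worms and to 2450, 1503 and 1291 FPKM in WT worms. The sum in *alh-4(-)* worms, 660 ± 173 FPKM (SD, n = 3), was 37.8% of that in WT worms, 1748 ± 617 FPKM (SD, n = 3). In whole worms, fewer cells that express a gene and less RNA per cell cannot be told apart.

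**Figure D1:**
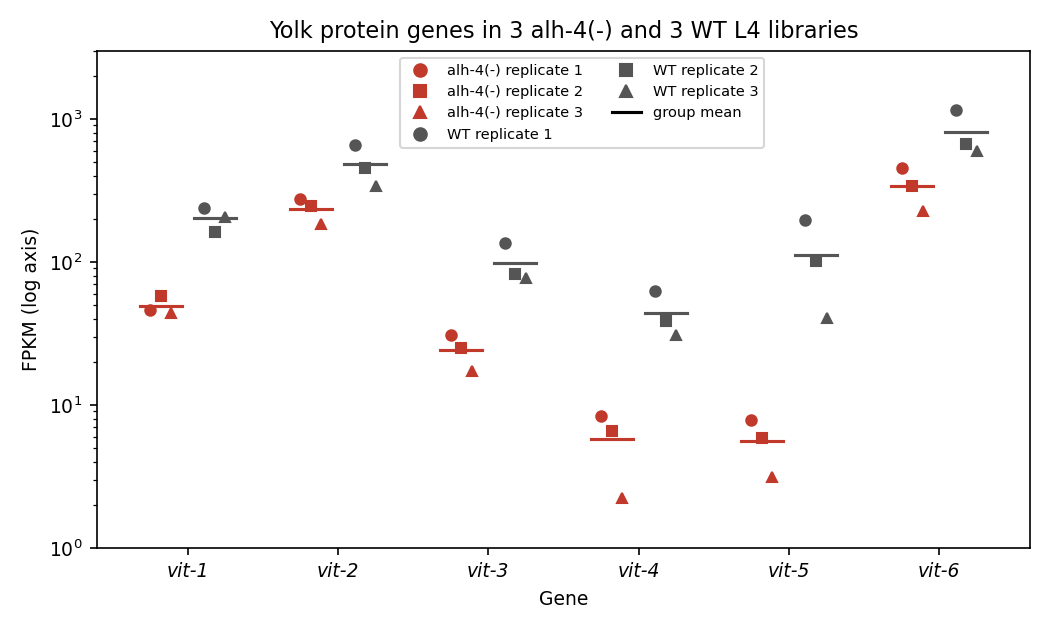
FPKM (log axis) of the 6 *vit* genes in each library, with *alh-4(-)* in red on the left and WT in grey on the right of each gene, symbols for replicates and lines for group means. In every gene the 3 *alh-4(-)* points lie below the 3 WT points, with the widest gap in *vit-5* and the narrowest in *vit-2*.

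The most abundant yolk transcript was *vit-6*, with 452, 339 and 226 FPKM in *alh-4(-)* worms and 1158, 664 and 601 FPKM in WT worms. Its lowest WT value was 1.33 times its highest *alh-4(-)* value, so that the genotypes were separate but close. The difference of the mean log2(FPKM + 1) values, *alh-4(-)* minus WT, was -1.24, and the mean was 339 ± 113 FPKM in *alh-4(-)* worms and 807 ± 305 FPKM in WT worms (SD, n = 3 each). The next in level was *vit-2*, with 277, 245 and 185 FPKM in *alh-4(-)* worms and 659, 456 and 337 FPKM in WT worms. This was the smallest of the 6 differences, with a log2 difference of -0.999 and a mean of 48.7% of the WT level. Among all tested genes *vit-2* lay between the percentiles 84.8 and 90.5 in *alh-4(-)* libraries and between 91.1 and 95.6 in WT libraries, so that it was an abundant transcript in both genotypes.

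The third gene in level, *vit-1*, had 46.1, 57.8 and 43.6 FPKM in *alh-4(-)* worms and 239, 161 and 205 FPKM in WT worms. It was the most even of the members among replicates, with a coefficient of variation of 15.4% in *alh-4(-)* worms and 19.4% in WT worms. Its log2 difference was -2.01, further from 0 than the -0.999 of its relative *vit-2*. The ratio of *vit-2* to *vit-1* was 6.01, 4.25 and 4.25 in *alh-4(-)* libraries and 2.76, 2.83 and 1.64 in WT libraries. Summed over both relatives, so that an exchange of reads between them does not matter, the level was 285 ± 49.8 FPKM (SD, n = 3) in *alh-4(-)* worms and 686 ± 188 FPKM (SD, n = 3) in WT worms.

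The genes of the other related group were less abundant, and their sum differed by more than that of *vit-1* and *vit-2*. The FPKM of *vit-3* was 30.6, 24.9 and 17.2 in *alh-4(-)* worms and 135, 82.3 and 77.0 in WT worms, a log2 difference of -1.96. For its neighbour *vit-4* the values were 8.41, 6.62 and 2.23 FPKM in *alh-4(-)* worms and 63.1, 38.9 and 30.6 FPKM in WT worms, a log2 difference of -2.82. The *alh-4(-)* libraries thus held *vit-4* below the median of the tested genes, between the 12.2 and the 41.8 percentile, while the WT libraries held it between the 59.0 and the 74.0 percentile. The ratio of *vit-3* to *vit-4* was 3.64, 3.77 and 7.72 in *alh-4(-)* libraries and lay between 2.12 and 2.52 in WT libraries.

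The widest difference was that of *vit-5*, with 7.90, 5.85 and 3.12 FPKM in *alh-4(-)* worms and 196, 101 and 40.5 FPKM in WT worms. The mean was 5.62 ± 2.40 FPKM in *alh-4(-)* worms and 112 ± 78.2 FPKM in WT worms (SD, n = 3 each), and the log2 difference of -3.90 was the 4th lowest of the 16225 tested genes. WT worms also disagreed most among themselves in this gene. The highest WT value was 4.83 times the lowest, against 1.48 to 2.06 times for the other 5 genes. Even the lowest WT library had 5.13 times the *vit-5* of the highest *alh-4(-)* library. Over *vit-3*, *vit-4* and *vit-5* together, the sum was 46.9, 37.4 and 22.6 FPKM in *alh-4(-)* worms and 393, 222 and 148 FPKM in WT worms, so that the mean of this group in *alh-4(-)* worms was 14.0% of the WT mean.

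The median log2 difference of the 6 genes was -1.98, and that of all tested genes was 0.07. Of the members, 5 had a log2 difference below -1, and 3.88% of all tested genes did. With *vit-2* at -0.999, this count turns on a rounding of the threshold. The 14 alternative settings tried kept the direction of all 6 genes. None moved a log2 difference by more than the residual SD of the same gene between replicates, which was widest in *vit-5* (0.89). The other filters and the block for the replicate number could not change these differences, and array quality weights were not among the 14. Leaving out a single library could not move a difference past this SD either. With 3 libraries per genotype, a library far from its group widens the SD by more than its removal shifts the mean. For these settings the comparison with the SD is therefore no check. Without WT replicate 1, the library with the highest *vit* sum, the *alh-4(-)* sum was 47.2% of WT, and without replicate 1 of both genotypes it was 41.4%. The log2 difference of *vit-2* was then -0.75 without WT replicate 1 and -0.88 without both, and that of *vit-5* was -3.37 and -3.62.

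The mixture of yolk transcripts differed as well as their amount. The genes *vit-6* and *vit-2* made up most of the summed *vit* FPKM in both genotypes. The share of *vit-6* was 50.7% ± 3.87 (SD, n = 3) in *alh-4(-)* worms and 46.0% ± 1.63 (SD, n = 3) in WT worms, and that of *vit-2* was 36.2% ± 2.53 in *alh-4(-)* worms and 27.8% ± 2.25 in WT worms. The share of *vit-5* was 0.960%, 0.861% and 0.654% in *alh-4(-)* libraries and 7.99%, 6.73% and 3.14% in WT libraries. For *vit-3* the share was 3.67% ± 0.06 in *alh-4(-)* worms and 5.65% ± 0.28 in WT worms. The shares of *vit-1* and *vit-4* were lower in *alh-4(-)* worms too, at 7.75% ± 1.88 and 0.821% ± 0.307 against 12.1% ± 3.31 and 2.51% ± 0.122 in WT worms. For each of the 6 genes the shares of the genotypes did not overlap, but 2 gaps were small. The nearest shares were 47.38% in *alh-4(-)* and 47.27% in WT for *vit-6*, and 9.13% and 9.76% for *vit-1*. Nothing is read from the count of 6, because the members were chosen from this contrast. Shares sum to a fixed total, so the higher shares of *vit-6* and *vit-2* follow from the lower shares of the other genes.

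**Figure D2:**
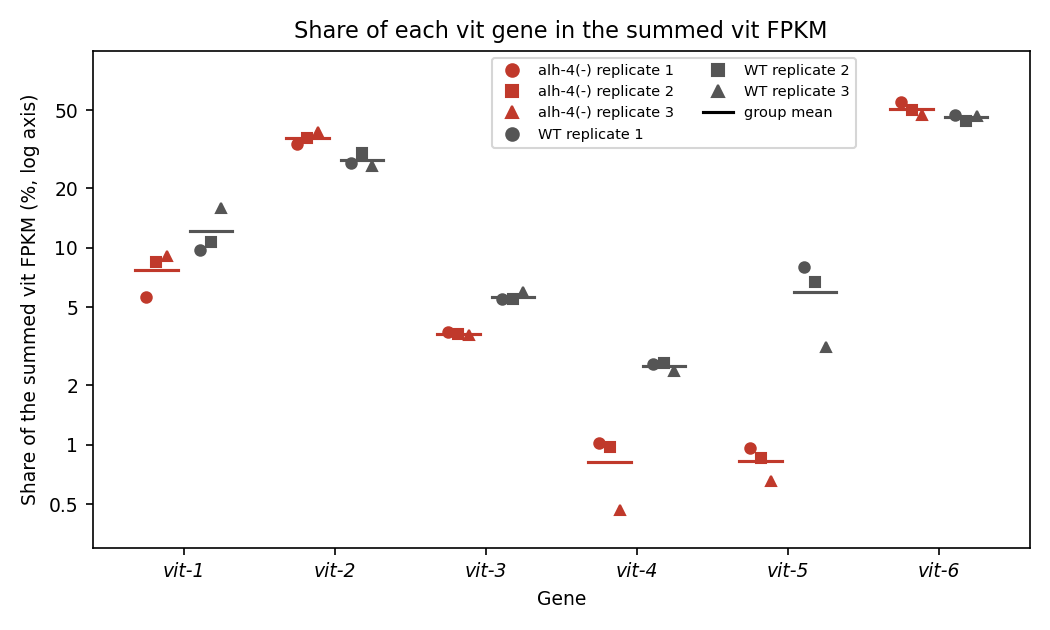
Share of each gene in the summed FPKM of *vit-1* to *vit-6* (percent, log axis) by library, with *alh-4(-)* in red on the left, WT in grey on the right, and lines for group means. The shares of *vit-4* and *vit-5* lie near or below 1% in *alh-4(-)* libraries and between 2.37% and 7.99% in WT libraries.

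The order of levels was *vit-6*, *vit-2* and *vit-1* in all 6 libraries. Below them, the order was *vit-3*, *vit-4* and *vit-5* by the means of *alh-4(-)* worms and *vit-5*, *vit-3* and *vit-4* by the means of WT worms. In *alh-4(-)* worms the values of *vit-4* and *vit-5* overlapped, and so did those of *vit-2* and *vit-6*, while *vit-1* and *vit-3* stood apart from their neighbours. In WT worms *vit-5* overlapped with *vit-1*, *vit-3* and *vit-4*, and *vit-2* overlapped with *vit-6*. The level of *vit-5* was above that of *vit-3* in WT replicates 1 and 2 but below it in WT replicate 3 and in all *alh-4(-)* libraries. The ratio of *vit-3* to *vit-5* was 3.88, 4.26 and 5.52 in *alh-4(-)* libraries and 0.689, 0.813 and 1.90 in WT libraries.

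Within each genotype the members were high and low in the same libraries. All 6 genes were highest in WT replicate 1 among the WT libraries, and 5 of 6 were lowest in WT replicate 3. In *alh-4(-)* worms 5 of 6 were highest in replicate 1, the exception being *vit-1*, and all 6 were lowest in replicate 3. The spread among replicates was wide in most of the genes, with coefficients of variation from 15.4% to 55.2% in *alh-4(-)* worms (highest in *vit-4*) and from 19.4% to 69.5% in WT worms (highest in *vit-5*). The members share these libraries, so this common order is 1 observation per library and not 6.

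The genes nearest in pattern to the *vit* mean were sought by the root mean square difference of centred log2(FPKM + 1) values over the 6 libraries, among genes with a mean of at least 10 FPKM. The nearest was *nlp-27*, a neuropeptide-like gene, at a distance of 0.26, with 8.60, 10.4 and 7.16 FPKM in *alh-4(-)* worms and 51.2, 49.2 and 31.0 FPKM in WT worms. It was followed by *cth-1*, a cystathionine gamma-lyase gene, at 0.34, with 234.6, 260.1 and 233.2 FPKM in *alh-4(-)* worms and 1280, 828 and 1031 FPKM in WT worms. The remaining 8, *fbxa-55*, *cysl-2*, F16B4.4, F46F2.3, *clec-218*, F35F10.5, T28D6.3 and *fip-5*, lay at distances from 0.36 to 0.54. For single members, *vit-2* and *vit-6* were each near the other, at a distance of 0.20, with *vit-2* the nearest of 10030 genes to *vit-6*, and C38C6.8 nearer to *vit-2* (0.18). The nearest gene to *vit-1* was *cth-1* (0.09), and the nearest to *vit-3* was *fbxa-55* (0.25). The nearest genes to *vit-4* and *vit-5* were other members, *vit-3* at 0.50 and *vit-4* at 0.68. These distances are descriptions over 6 libraries, in which genes with a like difference between the genotypes come out near each other.

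Few of the known regulators of the *vit* genes passed a test. Genes were compared with limma on log2(FPKM + 1) over all 16225 tested genes. Of 19 regulators, 2 had an unadjusted p under 0.05, both higher in *alh-4(-)* worms, beside 3.12% of all tested genes that were higher at this threshold, and 0 had an adjusted p under 0.05 (0.142% of all tested genes did) or a fold change over 2. Their median log2 difference was 0.06. The largest belonged to *pqm-1*, which encodes a zinc finger factor that acts in *vit* regulation. It had 92.2, 122 and 118 FPKM in *alh-4(-)* worms and 53.3, 54.1 and 59.6 FPKM in WT worms, a log2 difference of 0.97 with a standard error of 0.21 (limma, unadjusted p = 0.00222, adjusted p = 0.339). The genotypes did not overlap in *pqm-1*, and its difference stayed between 0.89 and 1.10 over the alternatives, past a fold of 2 in some of them. Of the 19 regulators, 3 were higher in every *alh-4(-)* library than in any WT library, beside 5.97% of all tested genes. In the opposite arrangement there were 0, beside 3.25% of all tested genes.

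The other regulator past an unadjusted p of 0.05 was *daf-16*, the FOXO factor held back by insulin signalling, which is known to lower *vit* expression when active. Its FPKM was 240.2, 371 and 321 in *alh-4(-)* worms and 168, 185 and 239 in WT worms, a log2 difference of 0.65 (standard error 0.24, limma, unadjusted p = 0.0321, adjusted p = 0.91). The genotypes were separate in *daf-16* only by the small gap between 239 and 240.2 FPKM. Leaving out any of 4 single libraries (*alh-4(-)* replicate 2 or 3, WT replicate 1 or 2) brought the unadjusted p of *daf-16* above 0.05, with log2 differences from 0.51 to 0.61.

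The activators *unc-62* and *ceh-60*, which encode partner homeodomain factors, had log2 differences of -0.31 and 0.16, with overlapping values. The FPKM of *unc-62* was 47.7, 52.6 and 42.6 in *alh-4(-)* worms and 85.0, 42.7 and 57.3 in WT worms. The intestinal GATA factor gene *elt-2* had 59.3, 102 and 94.6 FPKM in *alh-4(-)* worms and 78.9, 81.8 and 116 FPKM in WT worms, a log2 difference of -0.13. The log2 difference was -0.57 for *mab-3*, whose product represses *vit* genes in males, and -0.44 for *lin-29*, which drives the hypodermal switch from larva to adult. Without replicate 1 of both genotypes, the difference was 0.0391 for *mab-3* and 0.0270 for *lin-29*. The genes of the DBL-1 signalling pathway on the list (*dbl-1*, *daf-4*, *sma-2*, *sma-3*, *sma-4*, *sma-6* and *sma-9*) ranged from -0.31 (*sma-4*) to 0.28 (*daf-4*), and the sign of those near 0 changed with the libraries used. None of the genes in this paragraph had an unadjusted p under 0.05, which does not show that they were equal.

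Genes for the loading, uptake and breakdown of yolk likewise gave no calls. Of 13 such genes, 0 had an unadjusted p under 0.05 by limma, and 0 had an adjusted p under 0.05. Their log2 differences ran from -0.15 to 0.49. The highest belonged to *rme-2*, the yolk receptor gene of oocytes, with 488, 531 and 484 FPKM in *alh-4(-)* worms and 325, 290 and 481 FPKM in WT worms (limma, unadjusted p = 0.0728, adjusted p = 0.9998). Without WT replicate 3 the log2 difference of *rme-2* was 0.70, with an unadjusted p under 0.05. The gene *dsc-4*, for the microsomal triglyceride transfer protein that loads lipid onto lipoproteins, had 1478, 2356 and 2435 FPKM in *alh-4(-)* worms and 1339, 1473 and 2417 FPKM in WT worms, and the values overlapped. The cathepsin gene *cpl-1*, whose protease processes yolk in embryos, had a log2 difference of -0.11.

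**Figure D3:**
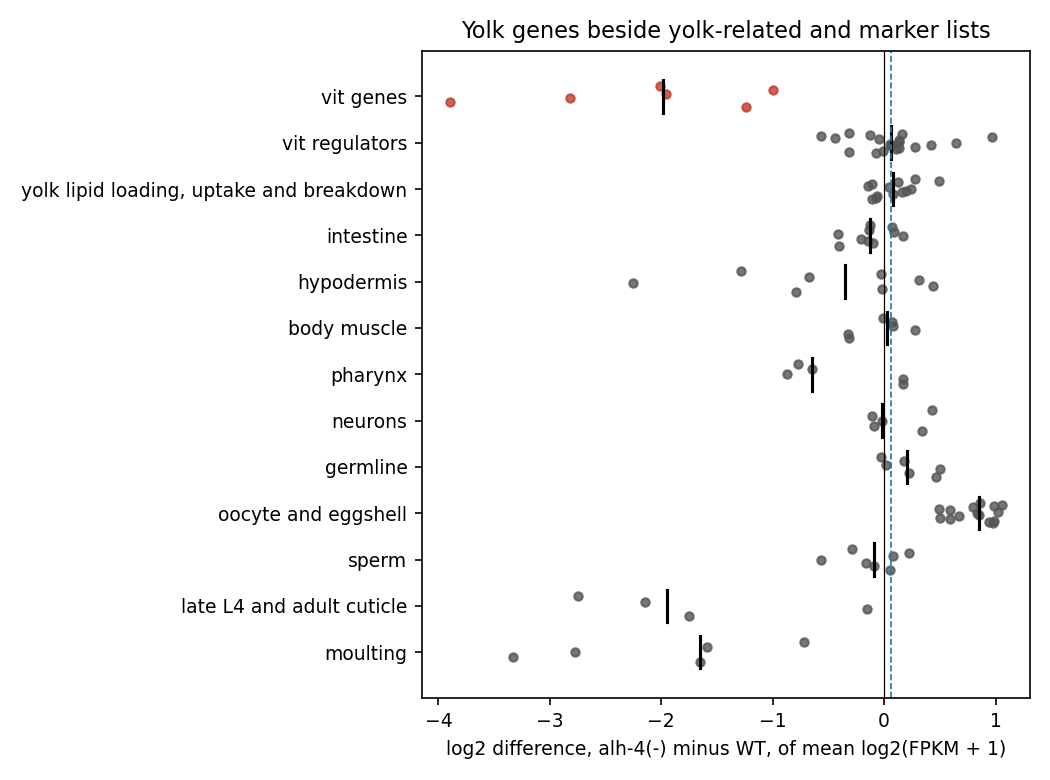
Log2 difference, *alh-4(-)* minus WT, of each *vit* gene (red) and of each tested gene of the regulator, yolk and marker lists (grey), with a black bar for the median of each list and a dashed line at the median of all tested genes (0.07). The *vit* genes lie at or below -0.999, the regulators and yolk handling genes lie around 0, and all 15 oocyte and eggshell genes lie above 0.

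Markers of the intestine, where the *vit* genes are expressed, did not pass the test. Of 10 intestinal markers, 0 had an unadjusted p under 0.05 by limma and 0 an adjusted p under 0.05, and the values of the genotypes overlapped in all 10. Their summed level ran from 15533 to 23150 FPKM in *alh-4(-)* worms and from 16237 to 26010 FPKM in WT worms, and their log2 differences from -0.41 to 0.17. The most abundant, *act-5* and *asp-1*, had log2 differences of -0.41 and -0.14, against a median of -1.98 for the *vit* genes.

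Genes of oocytes and the eggshell, the destination of yolk, were higher in *alh-4(-)* worms. Of 15 such genes, 13 had an unadjusted p under 0.05 by limma, all higher, beside 3.12% of all tested genes higher at this threshold, and in 14 the lowest *alh-4(-)* value exceeded the highest WT value, beside 5.97% of all tested genes. None had an adjusted p under 0.05 (lowest 0.189), 2 passed a fold change over 2 with an unadjusted p under 0.05 (*oma-2* and *egg-1*), beside 1.54% of all tested genes (0 of 15 after quantile normalization or upper quartile scaling), and the median log2 difference was 0.85. The summed level of the list was between 12729 and 13095 FPKM in *alh-4(-)* worms and between 7119 and 8622 FPKM in WT worms. The gene *oma-2*, for a zinc finger protein of maturing oocytes, had 19.3, 21.1 and 20.5 FPKM in *alh-4(-)* worms and 7.97, 10.1 and 9.67 FPKM in WT worms. The eggshell protein gene *cpg-1* had 2687, 3179 and 3294 FPKM in *alh-4(-)* worms and 1314, 1714 and 1604 FPKM in WT worms. The most abundant member, *cbd-1*, had a log2 difference of 0.59. Without replicate 1 of both genotypes, 12 of the 15 had an unadjusted p under 0.05 and all 15 were higher. The count past a fold change over 2 was 0 without replicate 1 of both genotypes and 1 without WT replicate 1. It was 4 without WT replicate 2 or *alh-4(-)* replicate 2, and 7 without WT replicate 3. Like the other gene lists, this list was chosen with earlier results of these data known, so its counts are given as a description. This list includes *rme-2*, and the part of the list in the *vit* result was not tested.

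Genes that come and go with the moult differed widely between libraries of 1 genotype. The gene *noah-1*, for a cuticle protein of the moult, had 8.69, 32.69 and 35.04 FPKM in *alh-4(-)* worms and 1326, 37.4 and 236 FPKM in WT worms. In *mlt-11*, a protease inhibitor gene, the values were 7.93, 33.1 and 54.4 FPKM in *alh-4(-)* worms and 891, 45.4 and 130 FPKM in WT worms. WT replicate 1, which had the highest *vit* sum, was thus also far above the other libraries in both genes. The other libraries did not share this order. In *alh-4(-)* worms the *vit* sum fell from replicate 1 to replicate 3 (822, 680 and 478 FPKM), while *noah-1* and *mlt-11* rose. WT replicate 2 was above WT replicate 3 in *vit* sum (1503 against 1291 FPKM) but below it in *noah-1* and *mlt-11*. It was also below it in *nas-37* (6.67 against 9.66 FPKM). In the more abundant *mlt-8* (1964 against 672 FPKM) and *mlt-10* (4181 against 3649 FPKM), WT replicate 2 was above WT replicate 3, as in the *vit* sum. In *mlt-10*, *alh-4(-)* replicate 1 stood apart, with 174 FPKM against 2371 and 3993 FPKM in the other *alh-4(-)* libraries and 2975, 4181 and 3649 FPKM in WT worms.

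Of 5 moulting genes, 3 passed a fold change over 2 with an unadjusted p under 0.05 by limma, all lower in *alh-4(-)* worms (*noah-1*, *mlt-11* and *nas-37*), beside 1.37% of all tested genes, and 0 had an adjusted p under 0.05. Their summed level, which *mlt-10* and *mlt-8* dominate, ran from 835 to 4940 FPKM in *alh-4(-)* worms and from 4697 to 6423 FPKM in WT worms. Of 4 cuticle genes of the late L4 stage and the adult, 1 passed these thresholds, *bli-1*, with 0.7495, 4.74 and 32.03 FPKM in *alh-4(-)* worms and 128, 17.3 and 41.2 FPKM in WT worms. That list summed to 313 to 451 FPKM in *alh-4(-)* worms and to 293 to 1325 FPKM in WT worms, mostly through *col-19*, while *bli-2* was lowest in *alh-4(-)* replicate 1 at 0.934 FPKM. Without WT replicate 1, 0 genes of either list passed, and the same held without *alh-4(-)* replicate 1 and without replicate 1 of both genotypes. Without *alh-4(-)* replicate 2 or WT replicate 3, 1 moulting gene and 0 cuticle genes passed, and without *alh-4(-)* replicate 3, 4 moulting genes and 2 cuticle genes did. The differences of these lists did not vanish with the calls. Without WT replicate 1 the median log2 difference was -1.60 for the moulting genes and -1.11 for the cuticle genes. Without replicate 1 of both genotypes it was -0.67 and -0.50. The *vit* genes, for which no test is given, had log2 differences from -3.37 to -0.75 without WT replicate 1. Without replicate 1 of both genotypes these ran from -3.62 to -0.88. The part of the stage reached within L4 in the *vit* differences was not tested.

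**Figure D4:**
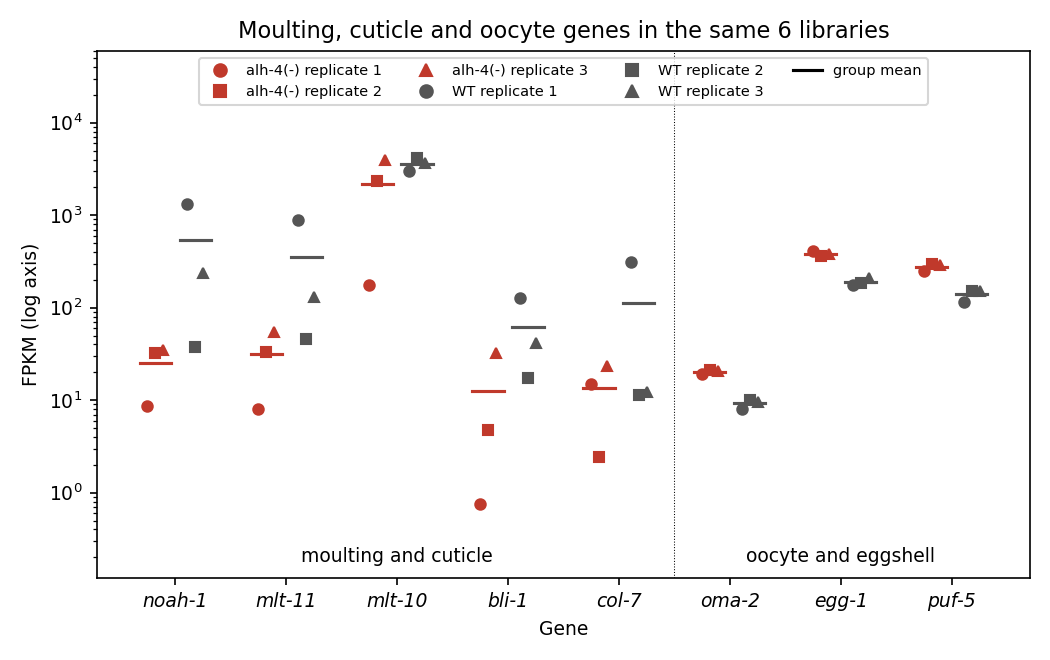
FPKM (log axis) of 5 moulting and cuticle genes and of 3 oocyte and eggshell genes in each library, with *alh-4(-)* in red on the left, WT in grey on the right, and lines for group means. WT replicate 1 stands above the other libraries in *noah-1*, *mlt-11*, *bli-1* and *col-7*, and *alh-4(-)* replicate 1 stands below them in *mlt-10*, while the oocyte genes are higher in every *alh-4(-)* library.

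The other marker lists, of hypodermis, body muscle, pharynx, neurons, germline and sperm, held 0 genes with an unadjusted p under 0.05 by limma and 0 with an adjusted p under 0.05. This count changed when 1 library was left out. Without WT replicate 3, 3 of 5 pharynx genes had an unadjusted p under 0.05, all lower with a fold over 2, as did 1 muscle gene (lower) and 1 germline gene (higher) with smaller folds. Without WT replicate 2, 2 hypodermal genes passed, both lower. Without *alh-4(-)* replicate 3, 1 hypodermal and 1 sperm gene passed, both lower, and without *alh-4(-)* replicate 1, 1 muscle gene did, higher. With all libraries, the median log2 differences of these lists were -0.35, 0.03, -0.65, -0.02, 0.21 and -0.09, in that order. All defining markers of these tissues were above 0 in every library, with those of neurons at the lowest summed level, 29.4 to 45.6 FPKM in *alh-4(-)* worms and 27.0 to 52.8 FPKM in WT worms. The sperm genes *gsp-3* and *gsp-4*, typical of the L4 hermaphrodite, had log2 differences of -0.09 and 0.05. For the chromosome that carries 5 of the members, the 2180 other tested X-linked genes had a median log2 difference of 0.01. Of these, 3.62% were lower in every *alh-4(-)* library than in any WT library, beside 3.09% of 12243 tested genes on other chromosomes. A further 1796 tested genes had no match by name in the WBcel235 annotation and were in neither group.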

How the data were processed

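RNA of whole L4 worms was sequenced after the Smart-seq2 protocol, in 3 biological replicates of each genotype. The authors mapped the reads to ce10, took the Illumina iGenome gene models for that build, and deposited 1 FPKM value per gene and library. The submitters' processing notes name Trimmomatic 0.36, HISAT2 2.1.0, SAMtools 1.3 and StringTie 1.3.3, and also list mm10 as a build. Whether counting used strand or split reads between related genes is not given in the sources used here. Low FPKM values multiplied by exon length showed no steps of single reads (at most 4% of the 500 lowest values lay within 1% of one value). The exon lengths were those of WBcel235 and not of the gene models the authors used, so steps could have been missed. Depth thus stays unknown, and no count test was run.

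Libraries were grouped by their titles. On the log2(FPKM + 1) scale, the 16225 genes averaging at least 1 FPKM, all 6 *vit* genes included, were fitted with limma 3.58.1 in R 4.3.3 (mean-variance trend, two-sided, Benjamini-Hochberg over all tested genes), which was tested on simulated data. The study's thresholds of a fold over 2 and an unadjusted p under 0.05 were applied on this scale. The negative binomial test of the study takes counts and was not used. The members and gene lists were chosen with earlier results of these data known. Genes named are the members, *alh-4*, regulators and yolk genes with an unadjusted p under 0.05 or fixed by name, called or most abundant markers, and the nearest patterns. Other genes were named after their values were seen. Figures were made with Matplotlib 3.10.9. Structures come from the Ensembl annotation of WBcel235, whose coordinates are not printed. No sequence was used here.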

Additional observations from a re-analysis of the deposited data

How the results depend on the processing

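The alternatives were a pseudocount of 0.1, other filters on low values, quantile normalization, upper quartile scaling, TPM for the *vit* sum, the log2 ratio of mean FPKM, array quality weights, eBayes without a trend, each library left out and a block for the replicate number, to which both replicate 1 libraries left out were added after seeing the data. The 6 *vit* differences moved by less than 1 residual SD between replicates under all of those run on them, which left out array quality weights. A single library left out could not move them further than that. The summed ratio, 0.378, ran from 0.331 to 0.472 over its alternatives. It moved by less than 0.099, the SD of the 3 *alh-4(-)* sums divided by the WT mean, which leaves out the spread of the WT sums. With a library left out, the differences were -2.16 to -1.88 (*vit-1*), -1.23 to -0.75 (*vit-2*), -2.14 to -1.71 (*vit-3*), -3.12 to -2.35 (*vit-4*), -4.49 to -3.37 (*vit-5*) and -1.48 to -0.95 (*vit-6*).

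By adjusted p, 23 genes were called, and 11 with no filter, 36 after quantile normalization, 35 after upper quartile scaling, 91 with array quality weights and 6 to 25 with a library left out. At the study's thresholds, 473 genes were called, 266 with a mean FPKM of at least 10, 894 with array quality weights, 774 without replicate 1 of both genotypes and 363 to 950 with a library left out. Of the list genes, 6 were called, 3 with no filter, 1 without replicate 1 of both genotypes and 1 to 12 with a library left out. The share of higher calls was 250 of 473, and 626 of 894 with weights, 213 of 490 after upper quartile scaling, 747 of 950 without *alh-4(-)* replicate 1 and 178 of 494 without *alh-4(-)* replicate 2.

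Deviations of same-numbered libraries correlated by 0.31, 0.28 and 0.00 for replicates 1, 2 and 3. Differently numbered libraries were not compared in this way, so these values do not show whether the numbers pair the samples. The main fit took no pairing. With the replicate number as a block, 1379 genes had an unadjusted p under 0.05 by limma, against 806 without it. At the study's thresholds 563 genes were called, against 473, and by adjusted p 15 were, against 23. Of the list genes, 3 were called at the study's thresholds, against 6, and 0 of the 3 were moulting genes.

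Some differences changed sign. That of *elt-2* was 0.0399 with weights, 0.0121 without both replicate 1 libraries and between -0.27 and 0.11 with a library left out. Without both replicate 1 libraries, *lin-29* went from -0.44 to 0.0270 and *mab-3* from -0.57 to 0.0391. That of *cpl-1* became 0.0235 with weights. Of 27 list genes followed singly, the other 23 kept their sign. Over 403 repeats of the 27, 343 kept sign and side of the threshold, 52 were past it no longer and 1 was newly past it (*rme-2* without WT replicate 3, 0.70). Among all 19 *vit* regulators, 11 had a positive difference, and 8 to 16 with a library left out and 18 without both replicate 1 libraries. The cause was not tested for any of these changes. Depth is unknown, and 3 libraries per genotype limit the precision of every value.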

Other observations

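A pair of hypodermal genes varied widely between libraries. The hedgehog-related gene *wrt-2* had 1.35, 1.32 and 3.83 FPKM in *alh-4(-)* worms and 64.4, 2.61 and 11.03 FPKM in WT worms, and the cuticle collagen gene *dpy-7* had 1.31, 8.89 and 5.74 FPKM in *alh-4(-)* worms and 41.7, 2.39 and 14.2 FPKM in WT worms, so that WT replicate 1 stood above the other 5 libraries in both. The collagen genes *dpy-13* and *col-10*, the most abundant of that list, did not share this order, with *dpy-13* highest in WT replicate 2 and *col-10* highest in *alh-4(-)* replicate 1. In the pharynx list, the troponin gene *tnc-2* had 713, 1004 and 1003 FPKM in *alh-4(-)* worms and 2825, 1958 and 801 FPKM in WT worms. These genes were chosen for this paragraph after their values were seen.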
